A study of Mus musculus with 7 samples.

Results

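A set of 40 genes of endoplasmic reticulum (ER) protein folding and of the unfolded protein response (UPR) were followed in single cells of the mouse thyroid and of thyroid follicular cell organoids (TFCOs). They were taken from a named list by symbol, and all 40 were rows of the table of 30879 genes. The list was chosen with earlier results of these data known. Shares of members set beside those of all genes are therefore a description. They fall into 9 ER chaperones and cochaperones, 3 genes of the lectin cycle, 6 isomerases, 5 translocation genes, 7 genes of ER-associated degradation (ERAD), 5 stress sensors and their transcription factors, and 5 targets of ATF4 and CHOP.

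The series holds 2 primary tissue samples and 5 TFCO samples, 3 labelled late passage and 2 early passage, from wild-type C57BL/6 mice. The labels give no age, no passage number and no animal for a sample, so p-values measure the spread between these samples, which may be technical. TFCOs are cultures of thyroid follicular cells (TFCs), the epithelial cells that make thyroglobulin (Tg) and thyroid hormone, grown in basement membrane extract with R-spondin 3, A83-01, forskolin, EGF, FGF10, B27, N-acetylcysteine and nicotinamide, so every TFCO sample and no tissue sample met these agents, and their part cannot be told apart from that of culture itself. Live cells were sorted singly into 384-well plates and sequenced with unique molecular identifiers (UMIs), each of which marks 1 captured transcript molecule at its 3′ end, so that levels do not scale with transcript length. A level is given as UMIs per 10000 UMIs of the cell, averaged over cells. Of 2590 cells, the 2035 with at least 1000 UMIs were used, 578 from tissue and 1457 from TFCOs.

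Tissue cells with a Tg level of at least 150 per 10000 are called Tg-high cells here. There were 57 in each tissue sample, beside 248 and 216 other tissue cells. The cut is a range and not a cell type: 14 tissue cells lay between 100 and 150 and 11 between 150 and 200. The labelled origin held in the TFC markers other than Tg, whose 11 levels summed to 35.1 and 33.4 in Tg-high cells, 29.7 to 43.9 in TFCOs and 1.92 and 2.41 in the other tissue cells.

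The ER folds nearly all proteins that a cell secretes, and TFCs devote much of it to Tg, a very large glycoprotein with many disulfide bonds. Chains enter through the SEC61 channel, are glycosylated, and are folded by BiP and GRP94, by calnexin and calreticulin, and by protein disulfide isomerases, while chains that fail are passed to the cytosol by ERAD. When unfolded chains build up, the sensors IRE1, PERK and ATF6 raise the chaperone genes through XBP1 and cleaved ATF6, and the amino acid and cell death genes through ATF4 and CHOP.

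The response acts through short promoter motifs, shown here because several of the members described next carry them. The ER stress response element, CCAAT and CCACG with 9 bases between them, was searched on both strands of RefSeq promoters (250 bases before to 50 after the start, build GRCm38.p6). Of the 40 members, 34 had a promoter in that table. The element was found in 8 of these 34 members and in 0.119% of all 32851 promoters. In the 250 bases before the Hspa5 start (chr2:34771840-34772089, + strand) it is in capitals. Only matches with exactly this gap are in capitals.
Hspa5: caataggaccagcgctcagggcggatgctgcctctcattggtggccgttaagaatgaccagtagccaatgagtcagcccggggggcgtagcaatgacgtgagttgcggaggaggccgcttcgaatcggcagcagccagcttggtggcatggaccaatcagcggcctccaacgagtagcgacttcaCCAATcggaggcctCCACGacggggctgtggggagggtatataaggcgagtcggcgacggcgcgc
The sites of the other members with the element are shown with 15 bases on each side, CCAAT and CCACG in capitals. Hsp90b1 held a site on each strand.
Calr (chr8:84847060-84847108, + strand, against the gene): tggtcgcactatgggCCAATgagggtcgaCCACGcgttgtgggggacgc
Hsp90b1 (chr10:86705623-86705671, - strand): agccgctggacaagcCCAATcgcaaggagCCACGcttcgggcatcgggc
Hsp90b1 (chr10:86705518-86705566, + strand, against the gene): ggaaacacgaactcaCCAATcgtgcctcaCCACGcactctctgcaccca
Canx (chr11:50325785-50325833, - strand): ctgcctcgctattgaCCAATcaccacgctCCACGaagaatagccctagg
Pdia6 (chr12:17266476-17266524, + strand): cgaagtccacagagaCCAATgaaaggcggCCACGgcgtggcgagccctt
Dnajc3 (chr14:118937812-118937860, + strand): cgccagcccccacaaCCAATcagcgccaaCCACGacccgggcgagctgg
Creld2 (chr15:88819505-88819553, - strand, against the gene): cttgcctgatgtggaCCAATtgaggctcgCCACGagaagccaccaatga
Syvn1 (chr19:6046517-6046565, + strand): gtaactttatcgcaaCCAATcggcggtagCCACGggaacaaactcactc
A match is a string of letters and not a shown binding site. The XBP1 motif TGACGTGG, searched likewise, was in 0.676% of all promoters and in 1 member, Txndc5.

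Libraries differed before any comparison. Total depth in the cells used ranged from 1360770 to 4690869 UMIs per sample, and the 384 well barcodes are reused on every plate, so shared barcodes say nothing of shared cells. The Tg-high cells were far shallower, with 144979 and 570973 UMIs in all. Their median was 2233 and 1972 UMIs per cell, against sample medians of 5011 to 12380.5 in TFCOs. In the Tg-high cells of tissue sample 2, 2 deep cells with 268847 and 151110 UMIs held 47.1% and 26.5% of the UMIs, and levels were therefore averaged over cells and not summed. Late sample 2 and early sample 1 were alike in depth and proliferation. They had the highest median depth (12380.5 and 11059 UMIs) and the highest summed proliferation markers (5.71 and 6.75, against 2.58 to 4.20 in the other TFCO samples). Their deviations from their groups correlated at 0.449 over 4354 genes. Deviations within a group sum to 0, so some late sample goes with early sample 1 in any data, and the sign alone shows no likeness. Markers of other cells were present in Tg-high cells. Their endothelial markers summed to 10.2 and 13.4 with 9 of 10 above 0 (81.0 and 87.96 in other tissue cells, 1.35 to 2.44 in TFCOs), their immune markers to 10.5 and 5.25 with 9 of 10 above 0, their stromal markers to 7.24 and 5.21 with 8 of 9 above 0, and their mural markers to 6.89 and 7.81 with all 10 above 0. Egfl7, Cd3e and Pdgfra were at 0. The C cell, parathyroid and erythroid markers summed to at most 5.91, 2.03 and 6.96. Mitochondrial transcripts summed to 1078 and 764 in Tg-high cells and to 451 to 730 in TFCOs, and dissociation-response genes to 2.68 and 4.68 against 4.25 to 9.05.

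**Figure D1:**
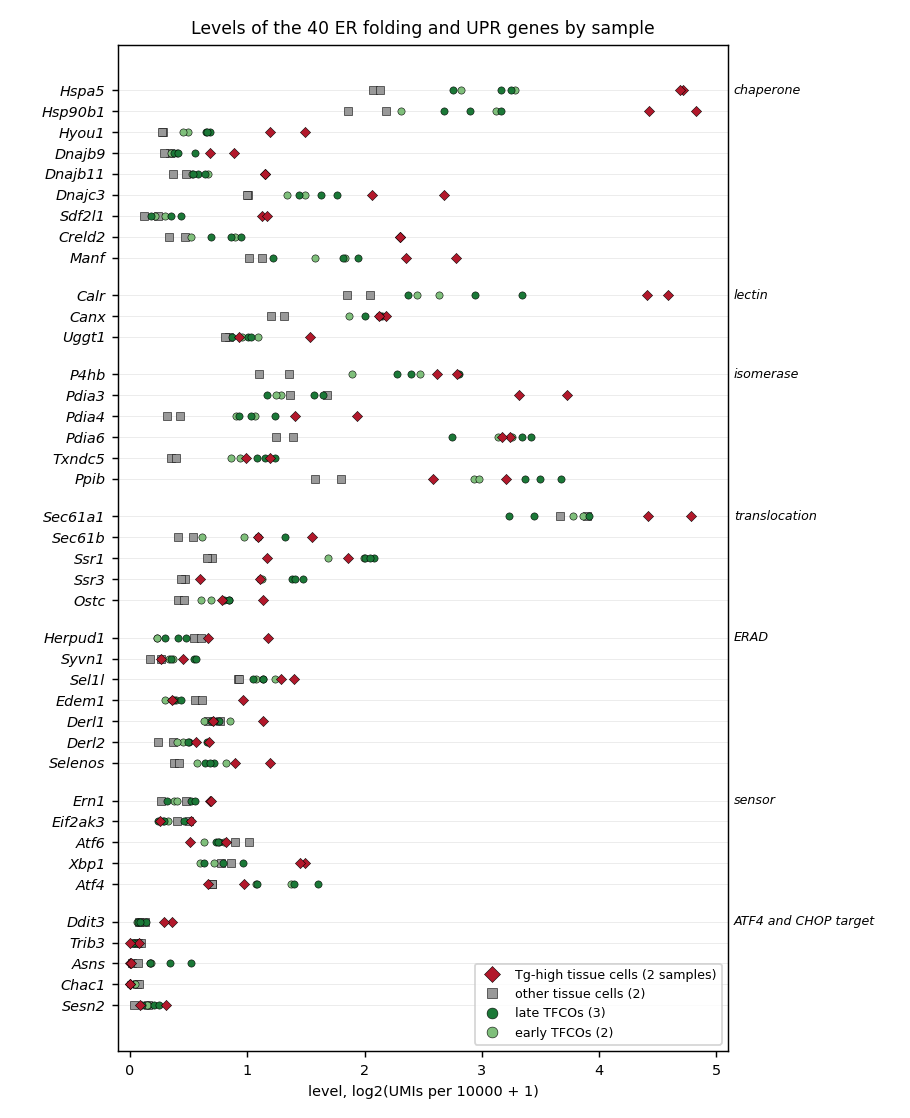
Level of each of the 40 genes, as log2(UMIs per 10000 + 1) on the horizontal axis, with 1 symbol per sample: red diamonds for Tg-high tissue cells, grey squares for other tissue cells, dark green for late and light green for early TFCOs. Hspa5, Hsp90b1, Calr and Pdia3 show both diamonds to the right of every other symbol, whereas the symbols of Pdia6, Ppib and Canx in Tg-high cells and TFCOs lie among each other.

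The first comparison set TFCOs against the Tg-high cells of the gland. Chaperones were lower in TFCOs, with all 8 tested members past the threshold, and so were calreticulin, the isomerases Pdia3 and Pdia4 and the transcription factor Xbp1. Most isomerases, the translocation genes and the ERAD genes did not pass. Summed over the 40 genes, the level was 183 and 151 UMIs per 10000 in Tg-high cells and 68.0 to 92.9 in TFCOs. Of the 28 members tested (12 were too low), 12 were lower and 0 higher, against 6.94% and 22.2% of all 4354 genes. The median log2 difference was -0.36 over the tested members and 0.21 over all tested genes. In 15 of the 28, every TFCO sample was below both tissue samples, a pattern shown by 11.1% of all tested genes. Centring each sample on its median gene moved the split of all calls from 967 higher and 302 lower to 433 and 454 and left 13 members lower. With UMIs summed over cells 4 members were lower (13 without the 2 deep cells), and with cells thinned to 1000 UMIs 6 were. Sdf2l1 entered the test through its level in tissue alone. Hyou1 was at 0.586 in late and 0.389 in early TFCOs, and the average of these means was under 0.5. The calls of both genes were therefore favoured by the filter. Of the 26 members at 0.5 or more in both groups 10 were lower and 0 higher, beside 6.7% and 11.5% of the 2851 such genes.

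Hspa5 encodes BiP, the ER Hsp70 that binds unfolded chains and keeps the sensors quiet. It stood at 25.2 and 24.8 UMIs per 10000 in Tg-high cells, at 5.76, 8.52 and 7.96 in late TFCOs and at 8.71 and 6.08 in early TFCOs. The tissue values were close to each other and 3.38 times the TFCO mean of 7.41 ± 1.39 (SD, n = 5), a log2 difference of -1.65 (SE 0.36, limma adjusted p = 0.00691). Hsp90b1, which encodes GRP94, the ER Hsp90, was at 27.3 and 20.4 in Tg-high cells, at 5.39, 7.94 and 6.48 in late TFCOs and at 7.71 and 3.98 in early ones (log2 difference -1.81, SE 0.39, adjusted p = 0.0066). Late sample 1 and early sample 2 had the lowest TFCO values of both genes.

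Creld2, an ER-resident disulfide isomerase of the UPR, had tissue levels 5.40 times the TFCO mean, next to Pdia3 in that ratio. Its level was 3.94 and 3.95 in Tg-high cells, 0.612, 0.818 and 0.926 in late TFCOs and 0.861 and 0.436 in early ones (log2 difference -1.54, SE 0.20, adjusted p = 0.000569). Sdf2l1, a partner of the ER DnaJ proteins, was at 1.19 and 1.25 in Tg-high cells and at 0.132 to 0.356 in TFCOs (log2 difference -0.86, SE 0.14, adjusted p = 0.00182). Both genes were far lower than BiP in absolute level, so the pseudocount of 1 shrank their differences. Hyou1, the large Hsp70 relative that exchanges the nucleotide of BiP, was at 1.82 and 1.28 against 0.367 to 0.609 (log2 difference -0.77, SE 0.15, adjusted p = 0.00413).

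The ER DnaJ proteins recruit BiP to its clients. Dnajc3 was at 5.41 and 3.18 in Tg-high cells and at 1.53 to 2.40 in TFCOs (log2 difference -0.86, SE 0.24, adjusted p = 0.0212). Dnajb11 was at 1.22 in both tissue samples and at 0.439 to 0.587 in TFCOs (log2 difference -0.56, SE 0.14, adjusted p = 0.0134). Dnajb9 was too low to be tested, at 0.602 and 0.853 against 0.276 to 0.469. Manf, a secreted ER stress factor, was at 5.86 and 4.10 against 1.33 to 2.86 and passed narrowly (log2 difference -0.88, SE 0.30, adjusted p = 0.0473); without early sample 1, early sample 2 or tissue sample 1 it did not (adjusted p = 0.0778, 0.0887 and 0.0819). In each of these genes the TFCO samples lay below both tissue samples.

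In the lectin cycle, calreticulin and calnexin, which bind glycoproteins that carry a last glucose, parted. Calr was at 23.1 and 20.2 in Tg-high cells, at 4.18, 6.70 and 9.18 in late TFCOs and at 5.20 and 4.47 in early ones (log2 difference -1.78, SE 0.39, adjusted p = 0.00707). Canx, its membrane-bound relative, was at 3.54 and 3.35 against 3.00, 3.39 and 3.36 in late TFCOs and 3.43 and 2.66 in early ones. These values overlap, and the log2 difference of -0.11 had a 95% interval from -0.62 to 0.41 (adjusted p = 0.765). Uggt1, which adds the glucose back to misfolded chains, was at 0.902 and 1.90 against 0.831 to 1.13 (log2 difference -0.24, SE 0.19, adjusted p = 0.362).

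The isomerases were split in the same way. Pdia3, the partner of the lectins, had the largest difference of all members, with 12.3 and 8.94 in Tg-high cells, 1.24, 2.13 and 1.98 in late TFCOs and 1.44 and 1.37 in early ones. The tissue mean was 6.49 times the TFCO mean (log2 difference -2.16, SE 0.26, adjusted p = 0.000334). Pdia4 was at 2.82 and 1.66 against 0.866 to 1.35 (log2 difference -0.65, SE 0.21, adjusted p = 0.0334) and also missed the threshold without early sample 1, early sample 2 or tissue sample 1 (adjusted p = 0.0528, 0.0582 and 0.0892). Pdia6, an isomerase that binds BiP, was at 8.43 and 7.99 in Tg-high cells, at 5.73, 9.16 and 9.69 in late TFCOs and at 8.54 and 7.79 in early ones. Its tissue values lay within the TFCO range, and the interval of its log2 difference of -0.02 ran from -0.78 to 0.74 (adjusted p = 0.971). P4hb, the classical protein disulfide isomerase, was at 5.93 and 5.12 against 2.71 to 5.99 (log2 difference -0.36, interval -1.07 to 0.34, adjusted p = 0.411). Ppib, the ER cyclophilin, was at 8.23 and 5.01 against 6.63 to 11.8 (log2 difference 0.34, interval -0.35 to 1.03, adjusted p = 0.445). Txndc5 was at 1.28 and 0.987 against 0.82 to 1.35. So Pdia3 was 6.49 times as high in Tg-high cells as in TFCOs and Pdia6 1.00 times, within the same libraries.

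Translocation genes gave no call. Sec61a1, the channel subunit, was at 26.6 and 20.4 against 8.42 to 14.1 (log2 difference -0.93, SE 0.38, adjusted p = 0.0838). It passed without late sample 2 (adjusted p = 0.0243). Without tissue sample 2, in a fit with equal weights, its log2 difference was -1.11. That gene followed the barcode of the well: between TFCO cells of different plates with the same barcode its level correlated at 0.687, whereas no other member passed 0.06. Sec61b was at 1.93 and 1.13 against 0.534 to 1.50. Both members in the translocon-associated complex failed to pass, Ssr1 with 2.64 and 1.24 against 2.22 to 3.23 (adjusted p = 0.205) and Ssr3 with 1.16 and 0.516 against 1.15 to 1.79 (adjusted p = 0.104). Its subunits Ssr2 and Ssr4, which are not members, did not pass either (adjusted p = 0.921 and 0.231). Ostc, a subunit of the oligosaccharyltransferase, was at 0.723 and 1.20 against 0.523 to 0.796.

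ERAD genes were low in all libraries. Sel1l, the adaptor of the HRD1 ligase and the highest of the 7, was at 1.44 and 1.63 in Tg-high cells, at 1.06, 1.20 and 1.19 in late TFCOs and at 1.10 and 1.36 in early ones (log2 difference -0.21, SE 0.17, adjusted p = 0.375). Derl1 and Selenos, tested too, had adjusted p of 0.394 and 0.107. Herpud1, Syvn1, Edem1 and Derl2 were below the filter. Herpud1, an ERAD organiser of the UPR, was at 0.583 and 1.27 against 0.170 to 0.391. Syvn1, the HRD1 ligase, was at 0.197 and 0.370 against 0.259 to 0.480, Edem1 at 0.955 and 0.281 against 0.227 to 0.354, and Derl2 at 0.598 and 0.473 against 0.317 to 0.572.

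Of the sensor genes, Xbp1, whose mRNA IRE1 splices, was at 1.82 and 1.73 in Tg-high cells, at 0.733, 0.551 and 0.955 in late TFCOs and at 0.516 and 0.641 in early ones (log2 difference -0.75, SE 0.17, adjusted p = 0.0094). Counting at the 3′ end does not tell its spliced from its unspliced form. Atf4 ran the other way, with 0.962 and 0.585 against 1.64, 1.11 and 2.04 in late TFCOs and 1.10 and 1.59 in early ones. All TFCO samples were above both tissue samples, but it missed the threshold (log2 difference 0.47, SE 0.23, adjusted p = 0.135). Without tissue sample 1, in a fit with equal weights, its log2 difference was 0.63. Atf6 was at 0.422 and 0.767 against 0.551 to 0.738 (adjusted p = 0.755). Ern1, which encodes IRE1, and Eif2ak3, which encodes PERK, were too low to be tested, at 0.603 and 0.615 against 0.245 to 0.467 and at 0.432 and 0.194 against 0.178 to 0.380.

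The 5 targets of ATF4 and CHOP were all below the filter and get no test. Asns, asparagine synthetase, had 0 UMIs in the 57 Tg-high cells of tissue sample 1, a depth at which 0 allows up to 0.207 per 10000 on summed UMIs, and 7 UMIs in 2 cells of tissue sample 2. In TFCOs it was at 0.267, 0.125 and 0.432 in late and at 0.127 and 0.135 in early samples, from 37 to 99 UMIs each. The limit in tissue sample 1 lies above 3 of these levels, so no difference from them was detectable at this depth. Ddit3, which encodes CHOP, gave 4 and 13 UMIs in Tg-high cells (0.282 and 0.226) and 14 to 25 in TFCOs (0.0451 to 0.101). Trib3 gave at most 9 UMIs in any population, and Sesn2 was at 0.0602 to 0.241 per 10000 in Tg-high cells and TFCOs. Chac1 had 0 UMIs in Tg-high cells and in 4 of the 5 TFCO samples.
Motifs of the ATF4 branch, the letters TGATGNAA on either strand, were found in 3.97% of all promoters and in 5 of the 34 members, of which the 3 below the filter with a motif before the start are shown, motif in capitals.
Asns (chr6:7693210-7693247, - strand): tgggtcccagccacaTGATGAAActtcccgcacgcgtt
Chac1 (chr2:119351034-119351071, - strand, against the gene): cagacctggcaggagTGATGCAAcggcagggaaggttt
Herpud1 (chr8:94386302-94386339, - strand, against the gene): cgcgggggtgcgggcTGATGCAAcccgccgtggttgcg

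Tg itself set the tissue cells and not the TFCO cells, so the comparison was repeated with limits on Tg in both. With TFCO cells also held to at least 150, which does not match Tg, since its median in Tg-high cells was 1177 and 731, 11 members were lower. Dnajc3, Manf and Pdia4 no longer passed (adjusted p = 0.0533, 0.0527 and 0.458), while Sec61a1 and Herpud1 did (log2 difference -0.95 and -0.50, adjusted p = 0.0189 and 0.0434). With both held between 150 and 600, which left 13 and 27 tissue cells, 0 members passed in limma, although 199 of 4361 genes did. Tg was not matched inside this range either. Cells at 300 to 600 made up 9 of the 13 and 12 of the 27 in tissue. In TFCOs they made up 16 of 103, 5 of 34 and 24 of 94 in late samples and 26 of 91 in early sample 2, while 17 of the 18 cells of early sample 1 were below 300. Hspa5 was then at 14.1 and 16.8 in tissue and at 6.75 to 12.7 in TFCOs (log2 difference -0.64, SE 0.46, adjusted p = 0.405) and Pdia3 at 5.04 and 5.75 against 1.21 to 2.62 (log2 difference -1.24, SE 0.39, adjusted p = 0.0843). Pdia6 stood at 2.12 and 5.64 in these tissue cells and at 6.59 to 12.98 in TFCOs (log2 difference 1.24, adjusted p = 0.158), in which every TFCO sample was above both tissue samples. Without the 19 and 20 Tg-high cells that carried 3 or more markers of another class, 10 members were lower and Hspa5 was at 24.9 and 26.7.

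Of the 7 tested members with the ER stress response element, 5 were lower in TFCOs (Hspa5, Hsp90b1, Calr, Dnajc3 and Creld2), with a median log2 difference of -1.54. Canx and Pdia6, which carry it too, did not pass. Among the 15 tested members whose promoter lacked it, 5 were lower, with a median of -0.34. Pdia3, with the largest difference, was among those. Hyou1 and Manf, also lower in TFCOs, had no promoter in the search and are in neither count. The same split over all genes was not made, and a role of the element was not tested.

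**Figure D2:**
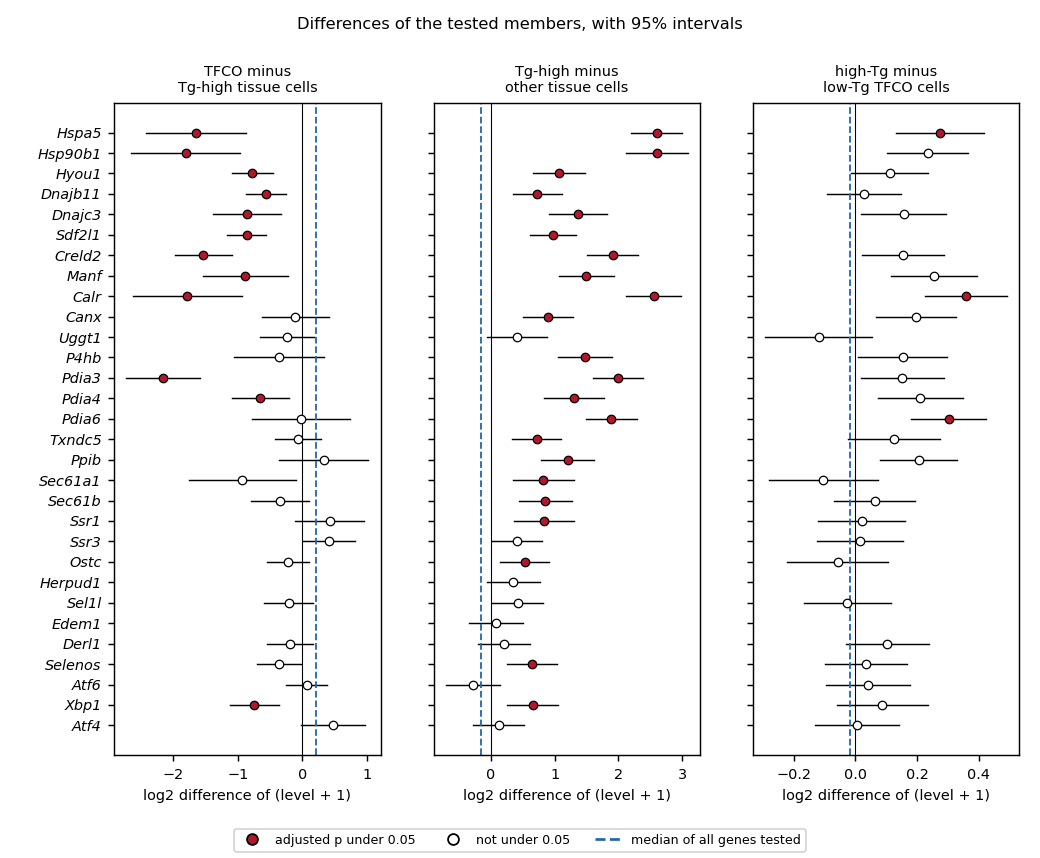
Log2 difference of (level + 1) for each tested member with its 95% interval in 3 comparisons; filled circles have an adjusted p under 0.05 and the dashed line is the median of all tested genes. On the left, the chaperones, Calr and Pdia3 lie to the left of 0 (Pdia3 at -2.16), while Pdia6 and Canx lie near it; in the middle most members lie to the right, up to 2.60; the right panel has a scale of its own, on which Calr reaches 0.36.

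Within the gland, the ER folding genes marked the Tg-high cells. Set against the other cells of the same tissue sample, 22 of the 30 tested members were higher and 0 lower, against 8.56% and 23.5% of 4240 genes. Their median log2 difference was 0.84, and that of all genes -0.16. These counts include 12 members that were below 0.5 in the other cells and passed the filter through the Tg-high cells alone, which favours a call: Creld2, Dnajb11, Hyou1, Ostc, Pdia4, Sdf2l1, Sec61b, Selenos and Txndc5, which were called, and Edem1, Herpud1 and Ssr3, which were not. Of the 18 members at 0.5 or more in both groups 13 were higher and 0 lower, beside 6.74% and 14.9% of the 2803 such genes. All 8 tested chaperones and all 6 isomerases were higher, 2 of 3 lectin genes, 4 of 5 translocation genes, 1 of 5 ERAD genes and 1 of 3 sensor genes. Centring moved the split of all calls from 363 higher and 998 lower to 766 and 788 and left 26 members higher. The test has 1 residual degree of freedom per gene, and it shares the Tg-high cells with the comparison against TFCOs, so the pair of results is not independent.

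Hspa5 was at 25.2 and 24.8 in Tg-high cells and at 3.20 and 3.39 in the others, 7.58 times as high (log2 difference 2.60, SE 0.18, adjusted p = 5.82e-05). Hsp90b1 was at 27.3 and 20.4 against 2.63 and 3.53 (2.60, SE 0.21, adjusted p = 9.28e-05), and Calr at 23.1 and 20.2 against 2.60 and 3.13 (2.55, SE 0.19, adjusted p = 6.49e-05). These 3 genes moved by nearly the same factor. Creld2 had the largest ratio of levels, 12.3, with 0.382 and 0.257 in the other cells. Pdia3 was at 2.20 and 1.58 in the other cells (log2 difference 2.00, SE 0.17, adjusted p = 0.000115), and Pdia6 at 1.37 and 1.61 (1.89, SE 0.18, adjusted p = 0.000145). Beside these, TFCOs were at 1.24 to 2.13 for Pdia3 and at 5.73 to 9.69 for Pdia6, which was not tested against the other cells.

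The remaining called members ranged from 1.50 (Manf) to 0.53 (Ostc) on the log2 scale. P4hb was at 1.14 and 1.55 in the other cells, Dnajc3 at 1.01 and 0.998, Pdia4 at 0.244 and 0.342, Ppib at 2.49 and 1.98, Hyou1 at 0.216 and 0.211, and Sdf2l1 at 0.178 and 0.0892. Their log2 differences were 1.48, 1.37, 1.30, 1.21, 1.06 and 0.97. Canx, which did not part tissue from TFCOs, parted the cells of the gland, with 1.30 and 1.48 in the other cells (0.89, SE 0.17, adjusted p = 0.00504). The other cells were at 0.450 and 0.325 for Sec61b, at 0.623 and 0.577 for Ssr1, at 11.7 and 13.9 for Sec61a1, at 0.292 and 0.395 for Dnajb11, at 0.276 and 0.310 for Txndc5 and at 0.709 and 0.822 for Xbp1. These and Selenos were higher in Tg-high cells by 0.65 to 0.85. The call of Sec61a1 was lost when UMIs were summed over cells (log2 difference 0.28, adjusted p = 0.659), in cells of 2000 or more UMIs (0.21, adjusted p = 0.637) and with every deposited cell, and that of Xbp1 in cells thinned to 1000 UMIs (0.41, adjusted p = 0.27). Calls were also lost for Sec61b and Selenos in thinned cells (adjusted p = 0.0648 and 0.131), for Ostc with every deposited cell (0.123), and for Dnajb11 with every deposited cell and in cells of 2000 or more UMIs (at most 0.0982).

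Of the tested sensor genes Xbp1 passed and the other two did not. Atf6 was at 0.422 and 0.767 in Tg-high cells and at 1.02 and 0.855 in the others (log2 difference -0.29, SE 0.19, adjusted p = 0.27), and Atf4 at 0.962 and 0.585 against 0.626 and 0.620 (0.12, SE 0.18, adjusted p = 0.635). Uggt1, Ssr3, Herpud1, Edem1 and Derl1 did not pass either, nor did Sel1l, at 0.891 and 0.900 in the other cells (adjusted p from 0.102 to 0.778).

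The other tissue cells were sorted by the marker list of which they carried the largest share, with at least 3 markers, into 136 and 129 endothelial-like, 38 and 36 mural-like, 26 and 14 stromal-like and 33 and 23 immune-like cells; 15 and 14 were not assigned. Hspa5 lay between 2.36 and 5.11 in these 4 classes, Calr between 1.87 and 3.59 and Pdia3 between 1.48 and 2.78, so no class of either sample came near the Tg-high level. Atf6 was highest in the immune-like cells, with 2.76 and 2.36 against 0.594 to 0.749 in the other 3 classes, a description without a test. Edem1, an ERAD lectin, was also highest there, at 1.53 and 1.27 against 0.0409 to 0.528. Xbp1 was at 1.27 and 1.57 in stromal-like cells and at 0.632 to 1.30 in the rest.

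Within a population, member levels were then set against Tg in the same cell, with Tg left out of the total. In tissue the bins of highest Tg had the highest levels of the folding genes, as a description. Hspa5 averaged 3.07 and 2.77 in tissue cells with Tg under 20, 4.47 and 7.64 between 75 and 150, 21.7 and 14.5 between 150 and 300, 11.5 and 21.1 between 300 and 600, 29.2 and 25.7 between 600 and 1500, and 42.9 and 56.3 at 1500 or more. The order broke in tissue sample 1, whose bin of 150 to 300 held 4 cells, and the bin of 300 to 600 held 9 and 12. Calr reached 41.0 and 32.1 and Pdia3 22.6 and 18.1 in the last bin. No TFCO sample had 4 cells at Tg of 600 or more. In their bin of 300 to 600, Hspa5 was at 7.29, 8.49 and 7.62 in late samples and at 11.9 in early sample 2. Pdia6 and Ppib were placed differently: at Tg of 300 to 600 TFCOs had 7.72 to 11.3 for Pdia6 against 2.10 and 7.57 in tissue, and 8.07 to 14.9 for Ppib against 3.40 and 6.12.

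**Figure D3:**
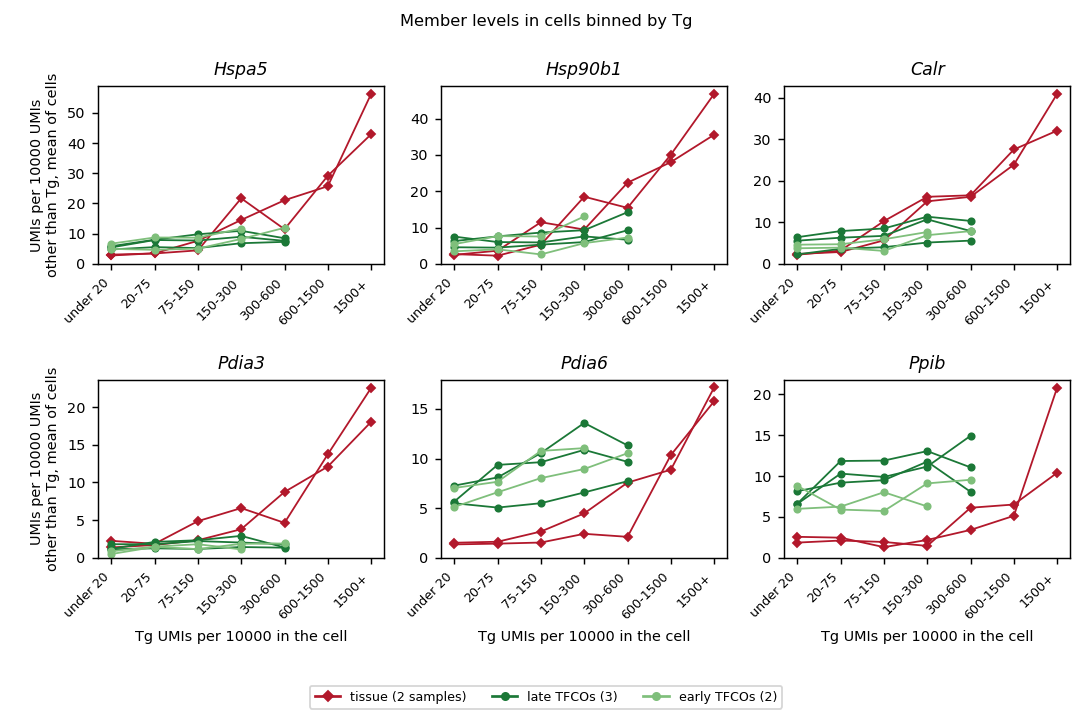
Mean level of 6 members (vertical axis, UMIs per 10000 UMIs other than Tg) in cells binned by their Tg level (horizontal axis), 1 line per sample; bins of fewer than 4 cells are left out. The tissue lines of Hspa5 go from 3.07 and 2.77 to 42.9 and 56.3, whereas TFCO lines end at the bin of 300 to 600; for Pdia6 the TFCO lines start above the tissue lines.

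Over the 57 Tg-high cells of each tissue sample, the rank correlation (Spearman) with Tg was 0.415 and 0.558 for Hspa5, 0.484 and 0.413 for Calr, 0.483 and 0.504 for Pdia3, 0.490 and 0.392 for Pdia6 and 0.556 and 0.392 for Ppib, while the median over all genes was 0.0165 and -0.12. After thinning every cell to 1000 UMIs the same genes had 0.323 and 0.516, 0.424 and 0.311, 0.248 and 0.437, 0.407 and 0.374, and 0.502 and 0.291. Translocation genes varied, with 0.309 and 0.198 for Ssr1, 0.017 and 0.0742 for Sec61a1, 0.0686 and 0.00346 for Ssr3 and -0.128 and 0.004 for Sec61b. Cells of a sample share their library, and Tg rank correlated with depth at 0.341 and 0.0934. In TFCO samples the correlations were smaller: 0.137 to 0.295 for Pdia6, 0.140 to 0.225 for Calr, 0.0893 to 0.204 for Ppib and 0.0403 to 0.258 for Hspa5, above 0 in all 5 samples, with an all-gene median between -0.0306 and -0.00556. Values of this size in sparse counts are given as a description alone.

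**Figure D4:**
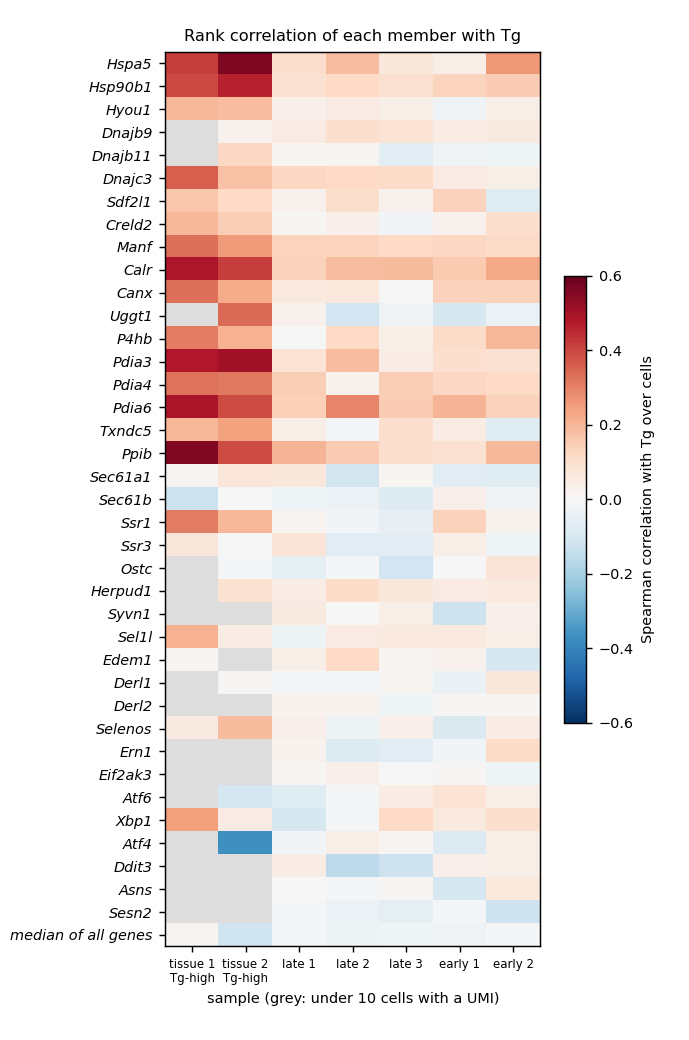
Spearman correlation of each member with Tg over the cells of a sample (red above 0, blue below, grey where fewer than 10 cells had a UMI), with the median of all genes in the bottom row. The columns of the 2 tissue samples are red for Hspa5 (0.415 and 0.558), Hsp90b1 (0.395 and 0.461), Calr, Pdia3, Pdia6 and Ppib, and the 5 TFCO columns are paler.

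The same question was put to TFCO cells with a test over samples, by setting the cells above the median Tg of their sample against those at or below it. Calr, Pdia6 and Hspa5 were higher in high-Tg cells, by small amounts. Of 27 tested members these 3 passed and 0 were lower, against 1.03% and 0.665% of 4664 genes; centring moved the split of all calls from 48 higher and 31 lower to 57 and 17 and gave 5 members. The median log2 difference was 0.11 over members and -0.02 over all genes. Calr was at 4.69 against 3.67, 7.27 against 6.13 and 10.5 against 7.82 in late samples, and at 6.00 against 4.40 and 5.48 against 3.46 in early samples (log2 difference 0.36, SE 0.06, adjusted p = 0.00498). Pdia6 was at 6.32 against 5.14, 10.3 against 7.99 and 10.7 against 8.72 in late, and at 9.78 against 7.31 and 8.66 against 6.92 in early samples (0.30, SE 0.06, adjusted p = 0.0085). Hspa5 was at 6.32 against 5.21, 9.50 against 7.55 and 8.49 against 7.42 in late, and at 9.05 against 8.37 and 7.44 against 4.73 in early samples (0.27, SE 0.07, adjusted p = 0.049).

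High-Tg cells were above low-Tg cells in all 5 samples in 11 of the 27 members, a pattern found in 5.38% of all tested genes: the 3 called members, Hsp90b1, Dnajc3, Manf, Canx, Pdia3, Pdia4, Ppib and Sec61b. Manf and Hsp90b1 came next, with adjusted p of 0.0633 and 0.0674. No translocation, ERAD, sensor or ATF4 gene passed. The 3 called members were all among the 7 tested with the ER stress response element, and none of the 14 tested members whose promoter lacked it passed. Members with no promoter in the search are in neither count. The same split over all genes was not made, and a role of the element was not tested. The calls depended on settings and samples. Hspa5 lost its call without any 1 of the 5 samples (adjusted p from 0.0696 to 0.154), and Pdia6 without early sample 1 (adjusted p = 0.059). Further, 0 members passed in cells thinned to 1000 UMIs (Calr adjusted p = 0.0591) or without the sample as a block, and Calr alone passed without the cycling cells (those with UMIs of 3 or more proliferation markers; 342 of 1457). The difference by Tg was not shown to depend on passage: of 27 members 0 passed in limma, 1 had an unadjusted p under 0.05, and 0 of 4664 genes passed (269 at an unadjusted p under 0.05).

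**Figure D5:**
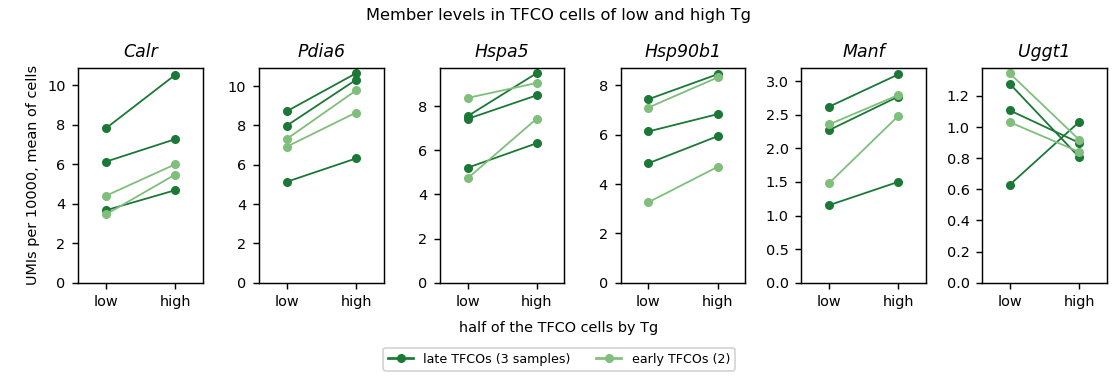
Mean level (UMIs per 10000) of 6 members in TFCO cells of low and high Tg, each line joining the 2 values of 1 sample, dark green for late and light green for early. The lines of Calr, Pdia6, Hspa5, Hsp90b1 and Manf all climb, while those of Uggt1 (log2 difference -0.12) climb in 1 of 5 samples.

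Passage was compared next, late against early TFCOs. No member passed in limma, beside 0.023% of all 4354 genes. An unadjusted p under 0.05 was found in 3 of 28 members. The share of all genes at that limit is not given here, so no excess is read from it. The lowest adjusted p was that of Sec61b, 0.207, with 1.50, 1.13 and 1.13 in late and 0.961 and 0.534 in early samples. Ppib was at 10.3, 9.31 and 11.8 against 6.63 and 6.85 (log2 difference 0.56, interval 0.06 to 1.07, adjusted p = 0.211). Every late sample was above both early samples in 7 of 28 members (Hyou1, Txndc5, Ppib, Sec61b, Ssr1, Ssr3 and Ostc) and below both in 0, against 17.7% and 24.9% of all tested genes. For Hspa5 the interval of the log2 difference of 0.01 ran from -0.56 to 0.57, and that for Pdia6 (-0.02) from -0.58 to 0.53. With a term that joins late 2 to early 1, or without early sample 1, 385 and 364 genes passed but 0 members did (lowest adjusted p 0.0773 and 0.0682, both Sec61b).

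Other genes of the pathway, 112 in 6 lists, gave a mixed picture in TFCOs against Tg-high cells. Of 65 tested, 12 were higher and 4 lower, beside 22.2% and 6.94% of all genes, with a median log2 difference of 0.21, the same as that of all genes. Of the 12, Mbtps1, Nars, Psat1, Sec63 and Tars were below 0.5 in tissue and passed the filter through TFCOs alone, which favours a call. Fkbp2, an ER prolyl isomerase in the list of redox and folding genes, was lower (2.91 and 2.74 against 0.307 to 0.942, log2 difference -1.27, adjusted p = 0.00115), and Selenof, an ER selenoprotein that binds UGGT, was higher (1.10 and 1.37 against 2.67 to 4.09, 0.97, adjusted p = 0.0134), which made 2 higher and 2 lower of 13. Magt1, the 1 called of 11 oligosaccharyltransferase and glucosidase genes, was lower (-0.90, adjusted p = 0.00675). Srp14 and Spcs1 led the 3 higher of 13 translocon and signal peptidase genes (0.69 and 0.57). In ERAD and ER exit, 2 of 12 were higher, Mcfd2 and Erlec1 (0.57 and 0.56), and 1 lower. Mbtps1, the site-1 protease that cleaves ATF6, was the 1 called of 3 tested sensors and regulators (0.56, adjusted p = 0.0257).

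Of the amino acid targets of ATF4, 4 of 13 tested were higher in TFCOs and 0 lower, beside 22.2% and 6.94% of all genes. Psat1, Nars and Tars passed the filter through TFCOs alone, which favours a call. Of the 6 targets at 0.5 or more in both groups 1 was higher, beside 11.5% of all such genes. Psat1, an enzyme of serine synthesis, was at 0.0458 and 0.538 in Tg-high cells and at 1.51, 1.72 and 2.53 in late TFCOs and 1.78 and 1.59 in early ones (log2 difference 1.13, SE 0.23, adjusted p = 0.00509). Mthfd2, a mitochondrial folate enzyme, was higher by 0.95, but followed the well barcode with a correlation of 0.62. In TFCO cells of high against low Tg, Psat1 was lower (-0.35, SE 0.07, adjusted p = 0.0162), whereas Sec11c, a signal peptidase subunit, and Ero1lb, an oxidase that recharges the isomerases, were higher (0.31 and 0.28, adjusted p = 0.0121 and 0.0412). Within the gland 19 of 49 tested genes of these lists were higher in Tg-high cells and 0 lower, beside 8.56% and 23.5% of all genes, most completely the oligosaccharyltransferase and glucosidase genes (9 of 10, led by Rpn2 and Ddost with 1.19 and 1.14). Fkbp2 and Ero1lb led redox and folding (1.43 and 1.36), Sec11c and Tram1 led translocation (1.36 and 0.83), and Os9 and Derl3 led ERAD (1.17 and 0.93), while 0 of 7 ATF4 targets and 0 of 1 sensors and regulators passed. Of the 19, 7 passed the filter through the Tg-high cells alone, among them Fkbp2, Ero1lb, Sec11c and Derl3, so their calls were favoured by it. Derl3, an ERAD gene of secretory cells, was at 1.15 and 0.807 in Tg-high cells, at 0.00538 and 0.0675 in other tissue cells and at 0.00503 to 0.0466 in TFCOs.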

How the data were processed

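Cells were sorted into 384-well plates and sequenced by SORT-seq, a form of CEL-seq2. Per the labels, the submitters' processing notes name Trim Galore 0.4.3, STAR 2.5.3a, Seurat and the builds GRCm38 and mm10; their filter on cells is not given in the sources used here. The authors deposited the natural log of 1 plus UMIs per 10000 for 30879 genes in 2590 cells. Undoing the log and dividing by each cell's smallest value gave whole UMIs for 100% of values (within 0.01). Cells of at least 1000 UMIs were kept, and no doublet caller was run.

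Levels were averaged over the cells of a sample and tested as log2(level + 1) for genes with a mean of at least 0.5, which understates differences of low genes, with limma 3.58.1 (R 4.3.3, trended empirical Bayes, Benjamini-Hochberg adjusted p under 0.05, over all tested genes). Intervals are 95% intervals of the log2 difference. TFCO and tissue samples had estimated weights of their own, except in fits without 1 of the tissue samples, which used equal weights. Comparisons within a sample had the sample as a block. The recovered UMIs were summed over cells as an alternative, and no count model was fitted. Python 3.11.15, pandas 2.3.3 and scipy 1.17.1 were used. Limits for a count of 0 are 3 UMIs and cover counting error only.

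The members and all lists were chosen with earlier results of these data known. Named are the 40 members, with values in every sample for those past the threshold (at most 20) and for the highest of each role, and per other list the 2 largest called differences. Tested on simulated data, the comparison of TFCOs with Tg-high cells recovered 37% of genes changed 2-fold and 89% of those changed 4-fold (4375 genes). The comparison within the gland recovered 22% and 73% (4189 genes). The simulated counts were sums at each population's total UMIs and not means over cells, so recovery in the data may be lower. Protein sequences were not analysed here.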

Additional observations from a re-analysis of the deposited data

Results flagged for a closer look

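In 3 of the 40 members a sample stood far from the other TFCO samples. Its gap to the nearest neighbour was above Dixon's 95% critical value for 5 samples. Chance gives this in about 1 of 20 groups, so 3 of 40 is near that rate. Dnajb9 was highest in late sample 1, at 0.469, with the next at 0.330 and the lowest at 0.276. Ssr1 was lowest in early sample 2, at 2.22, against 2.99 to 3.23 in the others. Chac1 was at 0.027 in early sample 2, from 7 UMIs in 2 cells, and at 0 in the other 4.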

How the results depend on the processing

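Against Tg-high cells, 12 members were lower in TFCOs. This became 4 with UMIs summed over cells, 6 in cells thinned to 1000 UMIs, 6 with no filter on low genes, 0 with Tg of 150 to 600 in both, and 10 to 16 with a sample left out. The 0 higher became 2 with equal weights, 1 with tissue Tg of 75 or more, 1 with the replicate block, and 0 to 3 with a sample left out (3 without tissue sample 1). The replicate block on late and tissue samples 1 and 2 gave 14 lower. The deviations of samples with equal numbers correlated at -0.0593 and 0.0353. With 2 tissue samples the deviations mirror each other, so these values cannot show whether equal numbers share an animal. All calls, 1269, became 196 summed, 761 thinned, 664 in cells of 2000 or more UMIs, 844 without marker-carrying cells, 742 unfiltered, 199 at Tg of 150 to 600 and 1936 with equal weights. Fits without a tissue sample also used equal weights, which alone gave 14 lower and 2 higher, so they mix 2 changes. The Tg-high cells of the gland had 19 to 26 members higher.

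The 3 members higher in high-Tg TFCO cells became 8 summed, 5 in cells of 2000 or more UMIs, 0 thinned, 1 without cycling cells, 1 with every deposited cell, 0 unfiltered, 0 with no replicate block, 5 centred, 6 with only the cells of highest and lowest Tg set against each other and 1 to 2 with a sample left out (1 without early sample 1). All calls, 79, became 164 summed, 45 thinned, 19 without cycling cells, 35 with every cell, 1 unfiltered, 0 without the block and 120 with only the cells of highest and lowest Tg.

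Against Tg-high cells, signs turned at Tg of 150 to 600 for Manf (0.0929), Pdia4 (0.59), Sel1l (0.0349), Pdia6 (1.24), P4hb (0.52), Canx (0.46) and Txndc5 (0.81). Sel1l also turned thinned (0.0467) and Canx with TFCO Tg of 150 or more (0.0479). Pdia6 turned with TFCO Tg of 150 or more (0.22), at 2000 UMIs (0.0184), without cycling cells (0.0043), with every cell (0.21), at tissue Tg of 75 (0.11) and without early 2, late 1 or tissue 1 (0.0092, 0.0847 and 0.0141; with a sample left out it ran from -0.0823 to 0.0847). Txndc5 turned summed (0.00906), without the 2 deepest cells (0.0412), with every cell (0.24), with the replicate block (0.0241), at Tg of 75 (0.0104) and without tissue 1 (0.0364; with a sample left out it ran from -0.164 to 0.0364). The cause was not tested. The 5 alternatives on Tg range, marker-carrying cells and the 2 deepest cells were chosen after seeing the data. The ATF4 and CHOP targets were too low at this depth to be tested against Tg-high cells. In that comparison the call was lost with its sign kept in 14 settings for Manf, 11 for Pdia4, 5 each for Dnajc3 and Dnajb11, 4 for Xbp1, 3 each for Hsp90b1 and Calr, 2 each for Hspa5 and Hyou1, 1 each for Creld2 and Pdia3 and, where it was tested, 0 for Sdf2l1.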
